A study of Mus musculus with 49 samples.

Results

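The 7 genes described here are Hmgcs1, Idi1, Fdps, Sqle, Cyp51, Nsdhl and Insig1. The first 6 encode enzymes of cholesterol synthesis, Insig1 encodes a protein that restrains the pathway, and all are known targets of the transcription factor SREBP2. They were chosen by name, with earlier results of these data known, so that counts of them called are descriptions. Each was followed through the probe sets to which the array annotation gives its symbol alone. All 7 were among the 18194 genes measured on the 25 arrays that held a value for every probe set. Only 5 of them, Idi1, Fdps, Sqle, Cyp51 and Nsdhl, were among the 5976 genes with a value on all 49 arrays, controls included.

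The study profiled livers from C57BL6/N males given 1 intraperitoneal injection of 300 mg/kg acetaminophen (APAP, paracetamol) in phosphate-buffered saline, a dose that in mice injures the hepatocytes around the central vein. The groups were a control, 1 h, 6 h and 12 h, and days 1, 2, 4, 6, 8 and 16 from the injection. All had 5 arrays except the 6 h group, which had 4. Day 16 appears in the sample labels, whereas the design text ends at day 8. Treated mice went without food the night before the injection and ate freely from then on. The labels do not say whether the controls were starved or injected with the vehicle. The drug, the fast and the refeeding therefore cannot be told apart in any comparison with control. Time from the injection and refeeding also run together in any comparison with 1 h, the group nearest to the fast. The arrays of a group are numbered as replicates without a statement that each is a separate mouse, and all p-values therefore measure the spread between arrays, which may in part be technical.

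Cholesterol is built from acetyl-CoA through mevalonate, isoprenoid diphosphates, squalene and lanosterol. SREBP2 is made as a precursor in the membrane of the endoplasmic reticulum, where it is bound to its escort SCAP. While sterols are plentiful, INSIG proteins hold the complex there; when sterols run low, SCAP carries SREBP2 to the Golgi, where it is cut and releases a fragment that enters the nucleus and activates the genes of the pathway. Insig1 is itself among those genes and so forms a brake on its own activator, and in liver it also responds to SREBP1c, the related factor that drives fatty acid synthesis.

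The promoters of 3 of the genes are shown because they stand for the parts of the pathway that the results turn on: Hmgcs1 at its entry, Nsdhl near its end, and Insig1 for its feedback. Each sequence runs from 250 bases before to 50 bases after the RefSeq transcription start on GRCm38.p6, 5′ to 3′ on the strand of the gene. Capitals mark the sterol regulatory element TCACNCCAC and the CCAAT box, searched on both strands (a CCAAT box on the other strand reads ATTGG). The Hmgcs1 promoter lies at chr13:119690101-119690400 on the plus strand, that of Nsdhl at chrX:72918271-72918570 on the plus strand, and that of Insig1 at chr5:28071162-28071461 on the plus strand.
Hmgcs1: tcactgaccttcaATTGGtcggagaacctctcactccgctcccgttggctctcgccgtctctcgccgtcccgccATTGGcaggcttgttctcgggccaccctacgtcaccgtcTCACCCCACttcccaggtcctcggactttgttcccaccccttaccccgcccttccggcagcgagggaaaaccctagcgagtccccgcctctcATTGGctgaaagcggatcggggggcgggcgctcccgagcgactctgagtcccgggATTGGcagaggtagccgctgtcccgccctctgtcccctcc
Nsdhl: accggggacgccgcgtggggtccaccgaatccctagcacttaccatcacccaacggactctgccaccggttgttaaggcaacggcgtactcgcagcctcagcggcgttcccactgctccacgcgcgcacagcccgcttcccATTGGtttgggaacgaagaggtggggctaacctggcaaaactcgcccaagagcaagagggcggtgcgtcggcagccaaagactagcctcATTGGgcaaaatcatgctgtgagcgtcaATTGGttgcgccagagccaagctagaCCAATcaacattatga
Insig1: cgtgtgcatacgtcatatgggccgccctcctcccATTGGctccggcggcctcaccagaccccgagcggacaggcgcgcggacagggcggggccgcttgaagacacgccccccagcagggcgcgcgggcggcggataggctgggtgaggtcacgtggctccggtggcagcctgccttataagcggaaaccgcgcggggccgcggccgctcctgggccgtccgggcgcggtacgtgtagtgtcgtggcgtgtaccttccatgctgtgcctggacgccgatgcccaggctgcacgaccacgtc
The RefSeq promoter table held 5 of the 7 genes, the other 2 of the 5 being Idi1 (chr13:8885356-8885655, plus strand) and Cyp51 (chr5:4104648-4104947, minus strand). TCACNCCAC occurred in the Hmgcs1 promoter, beginning at position -137 from the start, and in none of the other 4. It occurred in 408 of 32851 promoters of this length in the table, or 1.24%. The CCAAT box, the motif of the factor NF-Y, occurred 4 times in Hmgcs1, 4 times in Nsdhl, 2 times in Idi1, and 1 time each in Cyp51 and Insig1, and 37.4% of all promoters held at least 1. GGGCGG, a GC box bound by SP1 and not capitalised here, occurred 3 times each in Hmgcs1 and Insig1 and 1 time each in the other 3, against 35.7% of all promoters with at least 1. None of these motifs shares letters with another. These matches describe letters only, and a motif that is missing from these windows may lie elsewhere or differ in a base.

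The values are log2 expression levels per probe set, and array means lay between 6.03 and 6.33. The spread of values over an array (SD) was 2.40 to 2.48 on 46 arrays and at most 2.26 on the other 3, which were control replicate 3, 1 h replicate 3 and 16 d replicate 4. The 5 genes were at or near their group's lowest level on these 3 arrays: all 5 on 1 h replicate 3 and on 16 d replicate 4, and 4 of 5 on control replicate 3. Results are therefore also given without them where they matter. The labelled tissue was checked with the 4 hepatocyte markers that had a value on all arrays, Apoa2 and Cyp2e1 among them; their mean level was between 12.16 and 13.00 on every array, near the highest gene value of 14.08. In liver RNA taken as a whole, fewer cells of a type and less RNA per cell cannot be told apart.

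Against control, the 5 genes with control values showed no call at 1 h or 6 h, were all called higher at 1 d and 2 d, had their highest mean levels at 4 d, and were still 4.66-fold to 10.8-fold above control at 16 d. At 12 h Fdps and Sqle were called higher, and Idi1, Cyp51 and Nsdhl were not. Each of these calls was lost when any of several arrays was left out. A gene was called at an adjusted p (limma, Benjamini-Hochberg over 5976 genes) under 0.05. At 1 h, where 0.335% of all genes were called higher, 0 of 5 were called and 1 had an unadjusted p under 0.05, Sqle with a difference of -0.87 ± 0.40 (SE). At 6 h, where 3.78% of all genes were called higher, 0 of 5 were called and 0 had an unadjusted p under 0.05. The 2 of 5 called higher at 12 h compare with 11.5% of all genes. From 1 d on, 5 of 5 were called higher at every time, against 16.2% of all genes at 1 d, 19.9% at 2 d, 9.99% at 4 d, 5.89% at 6 d, 5.19% at 8 d and 3.31% at 16 d. The median difference of the 5 genes was 2.31 at 1 d, 1.79 at 2 d, 3.07 at 4 d and 2.87 at 16 d, beside medians over all genes between -0.03 and 0.00 at these times.

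**Figure D1:**
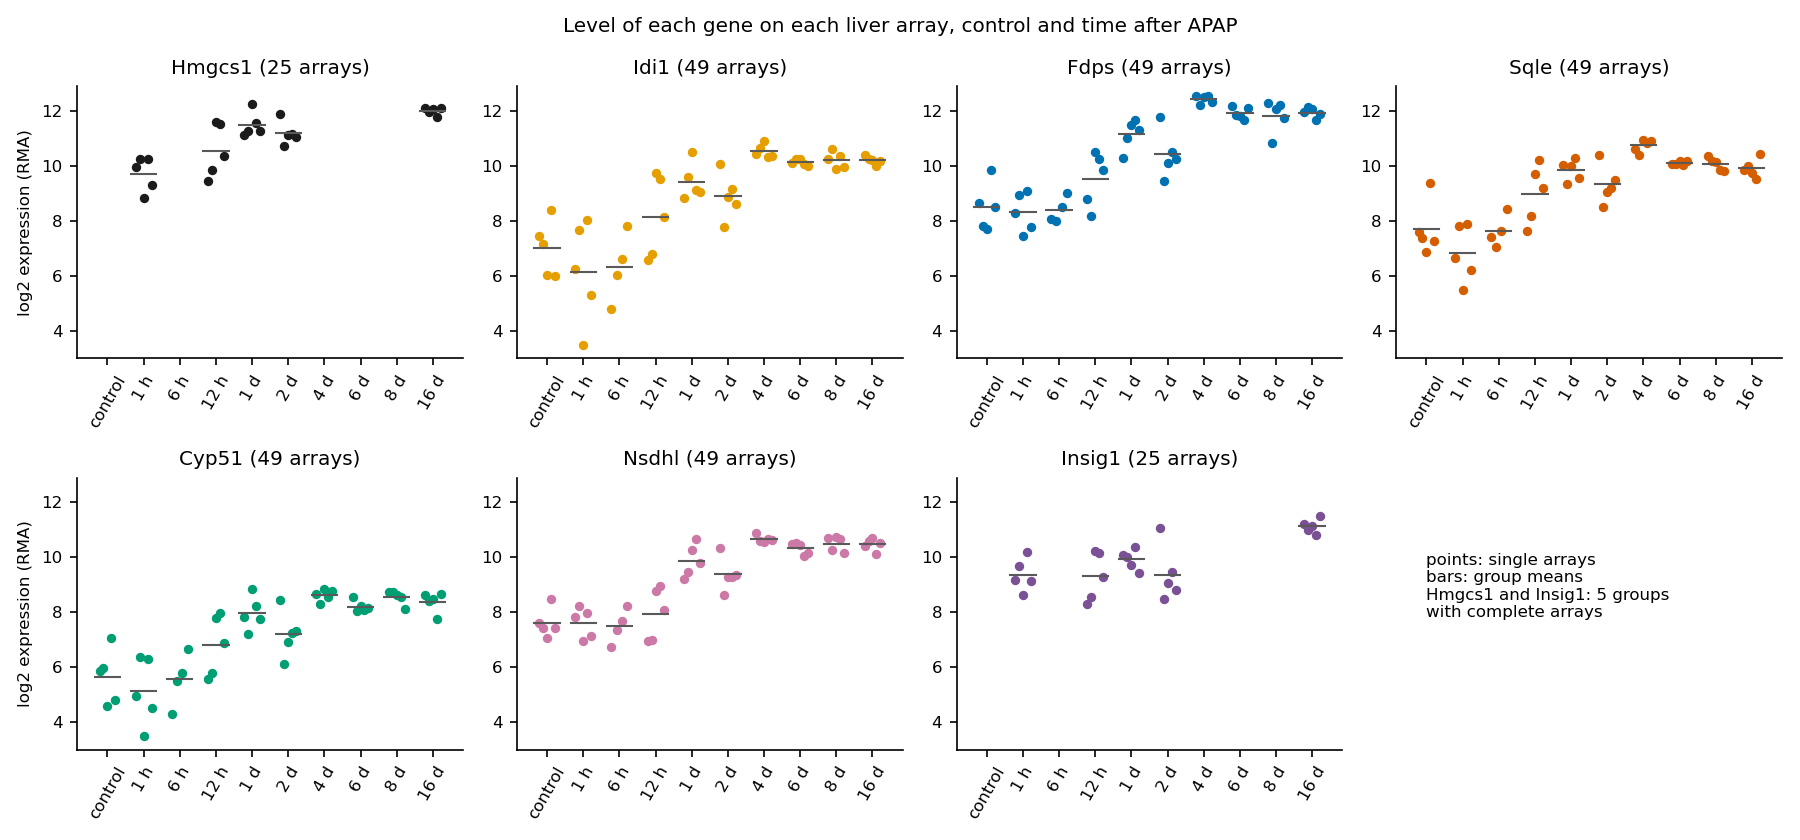
Log2 expression of each gene (vertical axis, RMA values as deposited) on each liver array, by group in order of time; points are arrays and bars are group means. Idi1, Fdps, Sqle, Cyp51 and Nsdhl have values in all 10 groups, Hmgcs1 and Insig1 in the 5 groups with complete arrays; the points spread widely up to 2 d and lie close together at 4 d and 16 d.

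Fdps, farnesyl diphosphate synthase, joins the isoprenoid units from which both sterols and prenylated proteins are made, and it had the largest mean differences from control of the 5 genes from 1 d on. Its level was 8.65, 7.80, 7.69, 9.83 and 8.51 on the 5 control arrays, 8.29, 8.92, 7.43, 9.09 and 7.78 at 1 h, and 8.06, 7.98, 8.49 and 9.03 at 6 h. These 3 groups covered the same range, with control replicate 4 the highest of the 14 arrays. It was 8.80, 8.18, 10.50, 10.24 and 9.84 at 12 h, and 10.28, 11.00, 11.50, 11.68 and 11.29 at 1 d. The 12 h arrays were divided, with replicates 1 and 2 inside the control range and replicates 3 and 4 above it. Replicate 5, at 9.84, was level with the highest control array, at 9.83. At 1 d every array was above every control array. At 2 d the values were 11.77, 9.43, 10.10, 10.51 and 10.26, of which replicate 2 fell within the control range. At 4 d they were 12.55, 12.19, 12.51, 12.53 and 12.33, a narrow set, all above the arrays of every earlier time. The later groups stayed close to that level, at 12.16, 11.83, 11.79, 11.65 and 12.10 at 6 d, 12.28, 10.84, 12.05, 12.20 and 11.74 at 8 d, and 11.94, 12.13, 12.07, 11.65 and 11.88 at 16 d. The difference from control was 1.02 ± 0.38 (SE; limma adjusted p = 0.0464) at 12 h, 2.65 ± 0.38 (4.38e-07) at 1 d and 3.93 ± 0.38 (2.1e-10) at 4 d. At 16 d it was 3.44 ± 0.38 (limma adjusted p = 2.51e-08), a 10.8-fold higher level. Without the 3 arrays of narrow range the difference at 16 d was 3.31, and that at 12 h was 0.82 and no longer called (limma adjusted p = 0.122).

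Idi1, isopentenyl diphosphate isomerase, supplies the substrate pair of Fdps. From control to 1 d its SD within a group, 0.67 to 1.85, was the largest of the 5 genes in every group, and at 16 d, at 0.14, it was the smallest. Its control levels were 7.46, 7.16, 6.02, 8.39 and 5.99, and at 1 h they were 6.23, 7.65, 3.49, 8.04 and 5.30. The value of 3.49, on 1 h replicate 3, lay close to the limit of 3.38 under which the lowest 10% of all gene values fell. At 12 h, levels of 6.57, 6.78, 9.74, 9.51 and 8.12 overlapped the controls, with a difference of 1.14 ± 0.58 that was not called (limma adjusted p = 0.16). At 1 d the levels were 8.83, 9.60, 10.51, 9.13 and 9.04, every one above the highest control. At 4 d they were 10.43, 10.65, 10.90, 10.32 and 10.34, and at 16 d 10.39, 10.24, 10.21, 9.99 and 10.19. The difference from control was 2.42 ± 0.58 at 1 d (limma adjusted p = 0.00118), 3.53 ± 0.58 at 4 d (1.51e-05) and 3.20 ± 0.58 at 16 d (0.000188).

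Sqle, squalene epoxidase, carries out the first oxygen-dependent and a rate-limiting step of the sterol branch, and its call at 12 h had the lower p of the 2. Control levels were 7.59, 7.36, 6.85, 9.37 and 7.27, and the 12 h levels were 7.61, 8.16, 9.71, 10.22 and 9.18. Control replicate 4 lay above 3 of the 5 arrays of 12 h, and the other 4 control arrays lay below the lowest of them. The difference at 12 h was 1.29 ± 0.40 (limma adjusted p = 0.0149). At 1 d the levels were 10.02, 9.32, 9.99, 10.26 and 9.56, of which replicate 2 was under control replicate 4. At 4 d they were 10.61, 10.40, 10.94, 10.84 and 10.91, and at 16 d 9.83, 10.01, 9.75, 9.52 and 10.43, in both groups above every control. The difference from control was 2.14 ± 0.40 at 1 d (limma adjusted p = 4.69e-05), 3.05 ± 0.40 at 4 d (2e-07) and 2.22 ± 0.40 at 16 d (0.000177).

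Each of the 12 h calls was lost when any of several arrays was left out. The count of 2 fell to 0 without 12 h replicate 3, without 12 h replicate 4 or without control replicate 3, and to 1 (Sqle) without 12 h replicate 5 or without control replicate 1, 2 or 5. Without 12 h replicate 1, 12 h replicate 2 or control replicate 4, Cyp51 was called as well. The same array, control replicate 4, was the highest control array for all 5 genes.

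Cyp51, lanosterol demethylase, acts on the first sterol of the pathway. Its levels in the probe set measured on all arrays (1422533_at) were 5.86, 5.97, 4.59, 7.08 and 4.81 in the controls. At 1 d they were 7.82, 7.19, 8.84, 8.23 and 7.76, at 4 d 8.65, 8.31, 8.85, 8.55 and 8.78, and at 16 d 8.64, 8.40, 8.47, 7.75 and 8.65. Every array of these 3 groups was above every control array. The difference from control was 2.31 ± 0.47 at 1 d (limma adjusted p = 0.000134), 2.97 ± 0.47 at 4 d (6.42e-06) and 2.72 ± 0.47 at 16 d (7.39e-05). A second, dimmer Cyp51 probe set on all arrays (1422534_at, mean 5.18 on the complete arrays) was not called at 1 d (0.70 ± 0.33) or 2 d (-0.05 ± 0.33) and was called at 4 d and at 16 d (1.48 ± 0.33). With the mean of both probe sets the Cyp51 difference was 1.50 at 1 d and 0.75 at 2 d, where it was no longer called (limma adjusted p = 0.115).

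Nsdhl, a sterol dehydrogenase of the demethylation steps that follow Cyp51, was the gene that showed least at 12 h, with a difference of 0.35 ± 0.32 (limma adjusted p = 0.482). Its levels were 7.59, 7.42, 7.06, 8.48 and 7.43 in the controls and 6.94, 6.99, 8.76, 8.95 and 8.06 at 12 h. At 1 d they were 9.19, 9.46, 10.28, 10.66 and 9.79, above every control and every 12 h array. At 2 d, with 10.33, 8.63, 9.29, 9.28 and 9.37, no array reached down into the control range, which among the 5 genes held at this time for Nsdhl alone. At 4 d the levels were 10.88, 10.60, 10.56, 10.68 and 10.62, and at 16 d 10.42, 10.60, 10.70, 10.12 and 10.51. The difference from control was 2.28 ± 0.32 at 1 d (limma adjusted p = 2.44e-07), 3.07 ± 0.32 at 4 d (1.04e-09) and 2.87 ± 0.32 at 16 d (2.51e-08).

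Counted over the 5 genes, every array lay above every control array for 4 at 1 d (all but Sqle), against 9.57% of all genes. The same held for 5 of 5 at 4 d, against 8.22% of all genes, and for 5 of 5 at 16 d, against 2.64%. Leaving out any single array or the 3 arrays of narrow range ended no call of these 5 genes against control from 1 d to 16 d. Of 624 repeats of these calls with other settings or fewer arrays, 623 kept call and direction, and the exception was Cyp51 at 2 d with the mean of its probe sets.

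**Figure D2:**
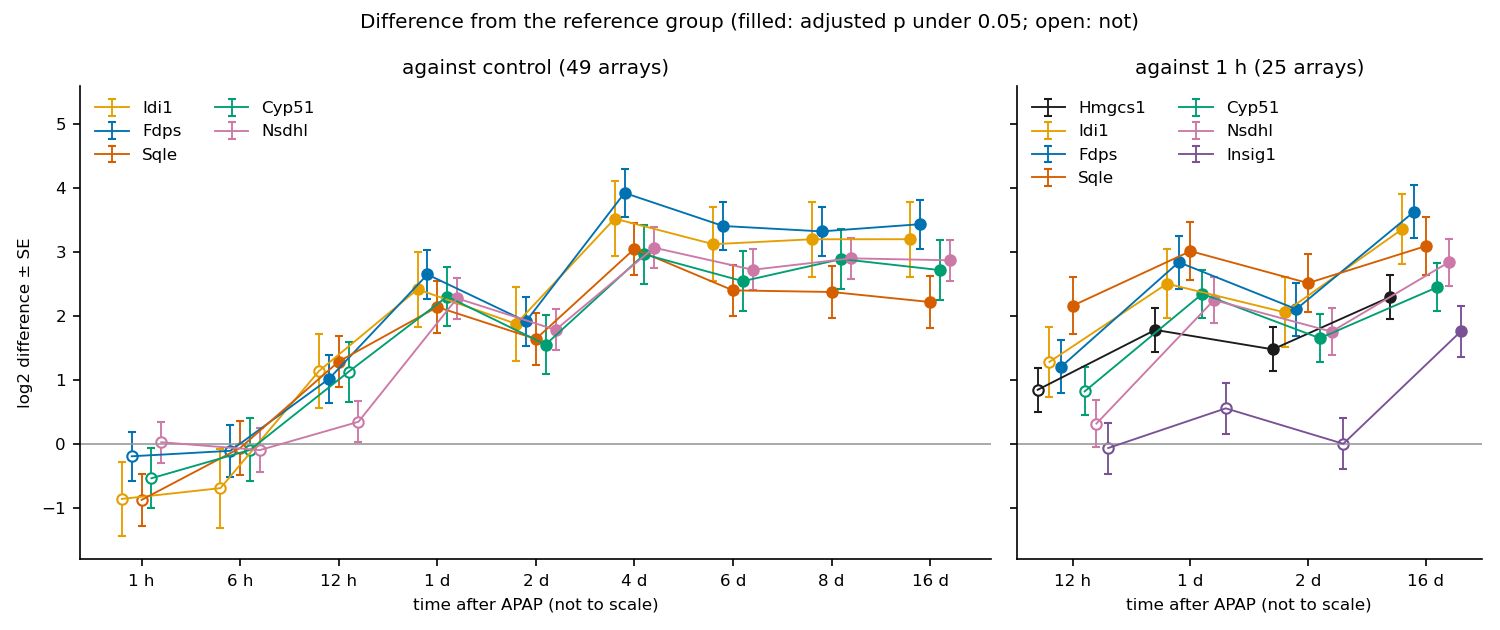
Difference in log2 level from control over 49 arrays (left) and from 1 h over the 25 complete arrays (right), as mean ± SE by time; filled points passed an adjusted p under 0.05 and open points did not. The 5 genes with control values peak at 4 d, between 2.97 and 3.93, and on the right Insig1 is called only at 16 d.

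Between neighbouring times, levels were called higher in the steps from 6 h to 12 h, from 12 h to 1 d and from 2 d to 4 d, and no step was called lower. From 6 h to 12 h, 1 of 5 genes was called higher, Sqle by 1.35 ± 0.43 (limma adjusted p = 0.0348), against 4.4% of all genes, and this call was lost without any one of 12 h replicates 3, 4 and 5 or 6 h replicates 1, 2 and 4. From 12 h to 1 d, 2 of 5 were called higher, Fdps by 1.63 ± 0.38 and Nsdhl by 1.93 ± 0.32, against 3.23% of all genes. On the complete arrays Fdps and Nsdhl were called in this step too, where 1.02% of all genes were. There Cyp51, by a brighter probe set (1450646_at), was also called, by 1.53 ± 0.38 (limma adjusted p = 0.0347). Hmgcs1, Idi1, Sqle and Insig1 were not called there. From 1 d to 2 d all 5 differences were below 0, from -0.75 ± 0.47 for Cyp51 to -0.49 ± 0.32 for Nsdhl. None of the 5 was called lower, against 3.66% of all genes, and none had an unadjusted p under 0.05. From 2 d to 4 d, 5 of 5 were called higher, against 5.77% of all genes: Fdps by 2.01 ± 0.38, Idi1 by 1.65 ± 0.58, Sqle by 1.41 ± 0.40, Cyp51 by 1.41 ± 0.47 and Nsdhl by 1.28 ± 0.32. Of these, Idi1 (limma adjusted p = 0.0405) and Cyp51 (0.0263) had the highest p. Both were lost without 2 d replicate 2, 2 d replicate 3 or 4 d replicate 3, and that of Idi1 also without any one of 2 d replicates 4 and 5 and 4 d replicates 1, 2, 4 and 5. From 4 d to 6 d the differences lay between -0.65 ± 0.40 (Sqle) and -0.34 ± 0.32 (Nsdhl). Called lower were 0 of 5, against 1.56% of all genes, and 0 had an unadjusted p under 0.05. Even so, every 6 d array was below every 4 d array for Fdps, Idi1, Sqle and Nsdhl, while the groups overlapped for Cyp51. How many of all genes were apart in this way was not counted. The SE rests on the spread shared over all groups, the wide early ones included. From 6 d to 8 d and from 8 d to 16 d no gene of the 5 was called and none had an unadjusted p under 0.05, with Fdps differences of -0.08 ± 0.38 and 0.11 ± 0.38. Over all genes, too, 0% were called higher and 0% lower in these last 2 steps (0 of 5976), so that the absence of calls is not particular to the 5.

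Ordered by mean level, all 5 genes had control, 1 h and 6 h at the bottom, then 12 h, 2 d and 1 d, then 6 d, 8 d and 16 d in varying order, and 4 d at the top. Few neighbours in this order were called different by the test, which shares 1 spread over all groups. Control and 12 h were for Fdps and Sqle, and 12 h and 2 d were for Nsdhl (1.44 ± 0.32, limma adjusted p = 0.000529). No other neighbouring pair passed the test for any of the 5. The shared spread is not that of the later groups alone. Sqle was 10.40 to 10.94 at 4 d and 10.02 to 10.16 at 6 d, its neighbour, without overlap. Fdps was at least 12.19 at 4 d and at most 12.13 at 16 d, its neighbour.

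The genes largely moved together from array to array within groups, though not on every array. On 8 d replicate 2, Fdps was at its lowest of the group and Idi1 at its highest. Control replicate 4, 6 h replicate 5 and 2 d replicate 1 were each the highest array of their group for 5 of 5 genes, and 1 h replicate 3, 2 d replicate 2 and 16 d replicate 4 were each the lowest for 5 of 5. At 12 h, replicates 3 and 4 deviated from the group mean by 1.02 and 1.10 on average over the 5 genes, and replicates 1 and 2 by -1.18 and -1.09. Pearson's r between pairs of the 5 genes across the 49 arrays was 0.91 to 0.98, and across the deviations from group means it was 0.75 to 0.93. These are descriptions over 10 pairs that share the same arrays. The spread itself changed with time: the SD within a group was 0.38 to 1.85 in the groups up to 2 d and 0.07 to 0.59 from 4 d on.

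**Figure D3:**
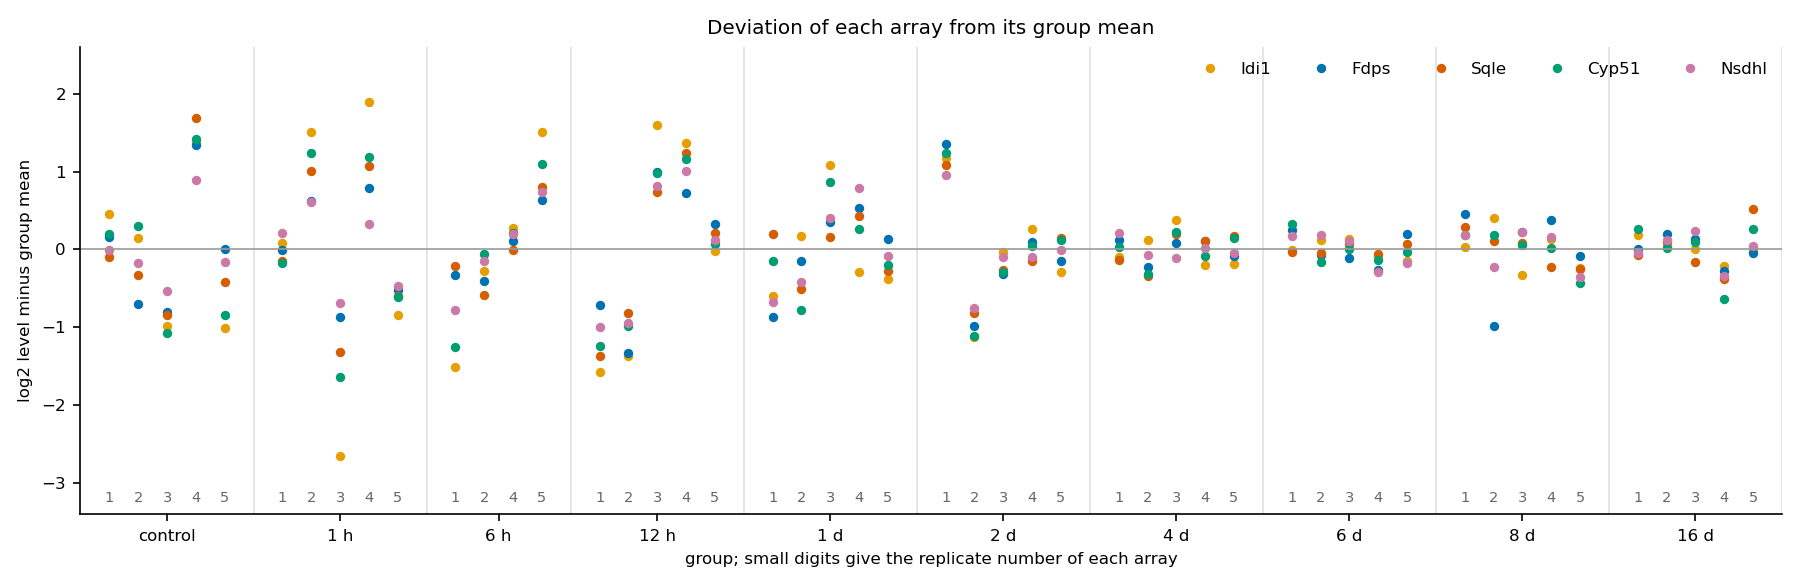
Log2 level of Idi1, Fdps, Sqle, Cyp51 and Nsdhl on each array minus the mean of its group (vertical axis), with groups in order of time and the replicate number under each array. All 5 points lie above 0 on control replicate 4 and 2 d replicate 1 and below 0 on 1 h replicate 3 and 2 d replicate 2. They lie on both sides of 0 on some other arrays, such as 8 d replicate 2.

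Hmgcs1 and Insig1 could be followed on the complete arrays alone, where the 1 h group is the earliest reference. That group was also the nearest to the fast, so that time from the injection and refeeding cannot be told apart in these comparisons. Hmgcs1 is the cytosolic HMG-CoA synthase, an early enzyme of the mevalonate pathway. Its levels were 9.94, 10.24, 8.81, 10.23 and 9.29 at 1 h, 9.44, 9.86, 11.58, 11.51 and 10.34 at 12 h, and 11.12, 11.25, 12.25, 11.56 and 11.26 at 1 d. They were 11.88, 10.72, 11.11, 11.14 and 11.06 at 2 d and 12.11, 11.96, 12.07, 11.79 and 12.09 at 16 d. The 12 h arrays again split into 2 that overlapped 1 h and 2 well above it, and every array of 1 d, 2 d and 16 d was above every array of 1 h. The difference from 1 h was 0.85 ± 0.34 at 12 h, not called (limma adjusted p = 0.0886). It was 1.79 ± 0.34 at 1 d (0.000451), 1.48 ± 0.34 at 2 d (0.00236) and 2.30 ± 0.34 at 16 d (0.000239). The 4 brighter Hmgcs1 probe sets gave 1.78 to 1.95 at 1 d and 2.25 to 2.54 at 16 d, and the dim one (1441536_at), with a mean level of 2.98, was not called at any time.

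Insig1, the feedback protein, was called higher than 1 h at 16 d alone. Its levels were 9.17, 9.69, 8.64, 10.19 and 9.13 at 1 h, 8.29, 8.56, 10.21, 10.16 and 9.28 at 12 h, and 10.09, 9.99, 9.72, 10.38 and 9.43 at 1 d. They were 11.05, 8.46, 9.07, 9.45 and 8.81 at 2 d, and 11.20, 10.98, 11.15, 10.81 and 11.49 at 16 d. The first 4 of these groups overlapped one another, 2 d replicate 1 stood above the rest of them, and the 16 d arrays were all above those of 1 h. The difference from 1 h was -0.06 ± 0.40 at 12 h, 0.56 ± 0.40 at 1 d (limma adjusted p = 0.328) and 0.00 ± 0.40 at 2 d (0.995). At 16 d it was 1.76 ± 0.40 (limma adjusted p = 0.0127), 3.39-fold higher, and 1.66 without the 3 arrays of narrow range (0.0448). From 1 d, its next lower group in order of level, to 16 d it rose by 1.20 ± 0.40 (limma adjusted p = 0.0319). A single probe set (1454671_at) measured it.

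Side by side on the complete arrays, 2 of 7 genes were called higher than 1 h at 12 h, against 8.29% of 18194 genes: Fdps by 1.21 ± 0.42 and Sqle by 2.16 ± 0.45. The Fdps call (limma adjusted p = 0.0436) was lost without any one of 12 h replicates 3, 4 and 5 or 1 h replicates 1, 3 and 5, while the count rose to 5 without 12 h replicate 1. At 1 d 6 of 7 were called higher, against 11.6% of all genes, and at 2 d 6 of 7, against 14.8%, with Insig1 the exception at both times. At 16 d 7 of 7 were called higher, against 1.46% of all genes. From 2 d to 16 d, 3 of 7 were called higher, against 8.54% of all genes, namely Fdps (from 10.41 to 11.93), Insig1 by 1.76 ± 0.40 and Nsdhl by 1.09 ± 0.37. The Nsdhl call (limma adjusted p = 0.0361) was lost without any one of 16 d replicates 1, 2, 3 and 5 or 2 d replicates 2, 3, 4 and 5. Whether Insig1 differed from the other 6 genes in its course was not tested. On these arrays a brighter probe set stood for Cyp51 (1450646_at) and for Idi1 (1451122_at), with differences at 16 d of 2.45 ± 0.38 and 3.36 ± 0.54. A second Fdps probe set near background (1438150_at, mean 2.41) did not follow the first, and with the mean of both the Fdps difference at 16 d was 1.77 in place of 3.63.

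The files give the shorter list of probe sets for control, 6 h, 4 d, 6 d and 8 d and the complete one for the other groups, and the sources used here do not say whether all arrays were normalised in 1 run. The part of the shorter list or of the normalisation in the differences was not tested.

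The other enzymes of cholesterol synthesis were looked up from a list of 16, of which 8 had values on all arrays and 13 on the complete arrays. Of the 8, 3 were called higher than control at 12 h (11.5% of all genes), 5 at 1 d (16.2%), 5 at 2 d (19.9%), 6 at 4 d (9.99%), 6 at 6 d (5.89%), 5 at 8 d (5.19%) and 6 at 16 d (3.31%), and none was called lower at any of these times. The largest differences at 4 d were those of Lss, lanosterol synthase (2.96 ± 0.31), Msmo1, the methylsterol oxidase that works beside Nsdhl (2.87 ± 0.40), and Mvd, mevalonate diphosphate decarboxylase (2.32 ± 0.30). Lbr, a sterol reductase that is also a protein of the nuclear envelope, was higher by 0.83 ± 0.22 at 6 h already and by 1.54 ± 0.21 at 2 d. The median difference of the 8 was 0.85 at 1 d, 1.38 at 4 d and 1.04 at 16 d. Of the 13 on the complete arrays, 7 were called higher than 1 h at 1 d (11.6% of all genes), 7 at 2 d (14.8%) and 9 at 16 d (1.46%). On the same arrays 2 of the 13 were called lower at 1 d (11.7% of all genes) and 1 at 2 d (13.3%). Dhcr7, which carries out the last reduction to cholesterol, was higher by 1.23 ± 0.29 at 1 d and 1.86 ± 0.29 at 16 d. Tm7sf2, a sterol reductase that acts on the same step as Lbr, fell, with a difference of -0.91 ± 0.19 at 12 h. The remaining listed enzymes were not analysed here.

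Among 4 other SREBP2 targets with control values, 2 were called higher at 12 h (11.5% of all genes), 1 at 1 d (16.2%) and 2 at 2 d (19.9%), so that the count at 1 d was near the share over all genes. At 4 d, 6 d, 8 d and 16 d, 4 of 4 were called higher, against at most 9.99% of all genes. Rdh11, a retinol dehydrogenase, was higher by 2.28 ± 0.30 at 1 d, 3.08 ± 0.30 at 4 d and 2.53 ± 0.30 at 16 d. Fabp5, a fatty acid binding protein, was called from 2 d (1.82 ± 0.41) and stood at 3.04 ± 0.41 at 16 d. Aacs, acetoacetyl-CoA synthetase, was higher by 0.89 ± 0.32 at 12 h, not called at 1 d (0.07 ± 0.32), and higher by 2.52 ± 0.32 at 4 d.

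The genes whose pattern was most like the mean of the 5 across the 49 arrays, by Pearson's r and leaving out the 5, were Msmo1 (0.978), Rdh11 (0.943), Lss (0.930), Mvd (0.896) and Mvk (0.868). Across the 25 complete arrays and with the mean of 7, they were Msmo1 (0.958), Dhcr7 (0.942), Pmvk (0.938), Rdh11 (0.935) and Acsl3 (0.928). Of the 7 genes themselves, Insig1 had the lowest r with their mean, 0.817, though it is part of it. All of these arrays share the same groups and normalisation, and r is given as a description.

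Of the genes that control SREBP activity, Insig2, the other INSIG protein of the liver, fell against control at 1 d (-0.67 ± 0.22), 2 d (-0.62 ± 0.22) and 4 d (-1.19 ± 0.22). On the complete arrays Scap, the escort, fell against 1 h at 12 h (-0.57 ± 0.14), 1 d (-0.48 ± 0.14) and 2 d (-0.49 ± 0.14), and at 16 d its difference was 0.07 ± 0.14. Srebf1, which encodes SREBP1, rose by 1.30 ± 0.34 at 1 d, 1.78 ± 0.34 at 2 d and 2.31 ± 0.34 at 16 d, from 7.33 ± 0.64 (SD, n = 5) at 1 h to 9.64 ± 0.30 (SD, n = 5) at 16 d. Srebf2, which encodes SREBP2 and is named for that role after its values were seen, was not called at any time, with differences of -0.13 ± 0.16 at 12 h, -0.03 ± 0.16 at 1 d, -0.15 ± 0.16 at 2 d and 0.27 ± 0.16 at 16 d. With the mean of its probe sets the 1 d difference was above 0 and called, at 0.52.

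**Figure D4:**
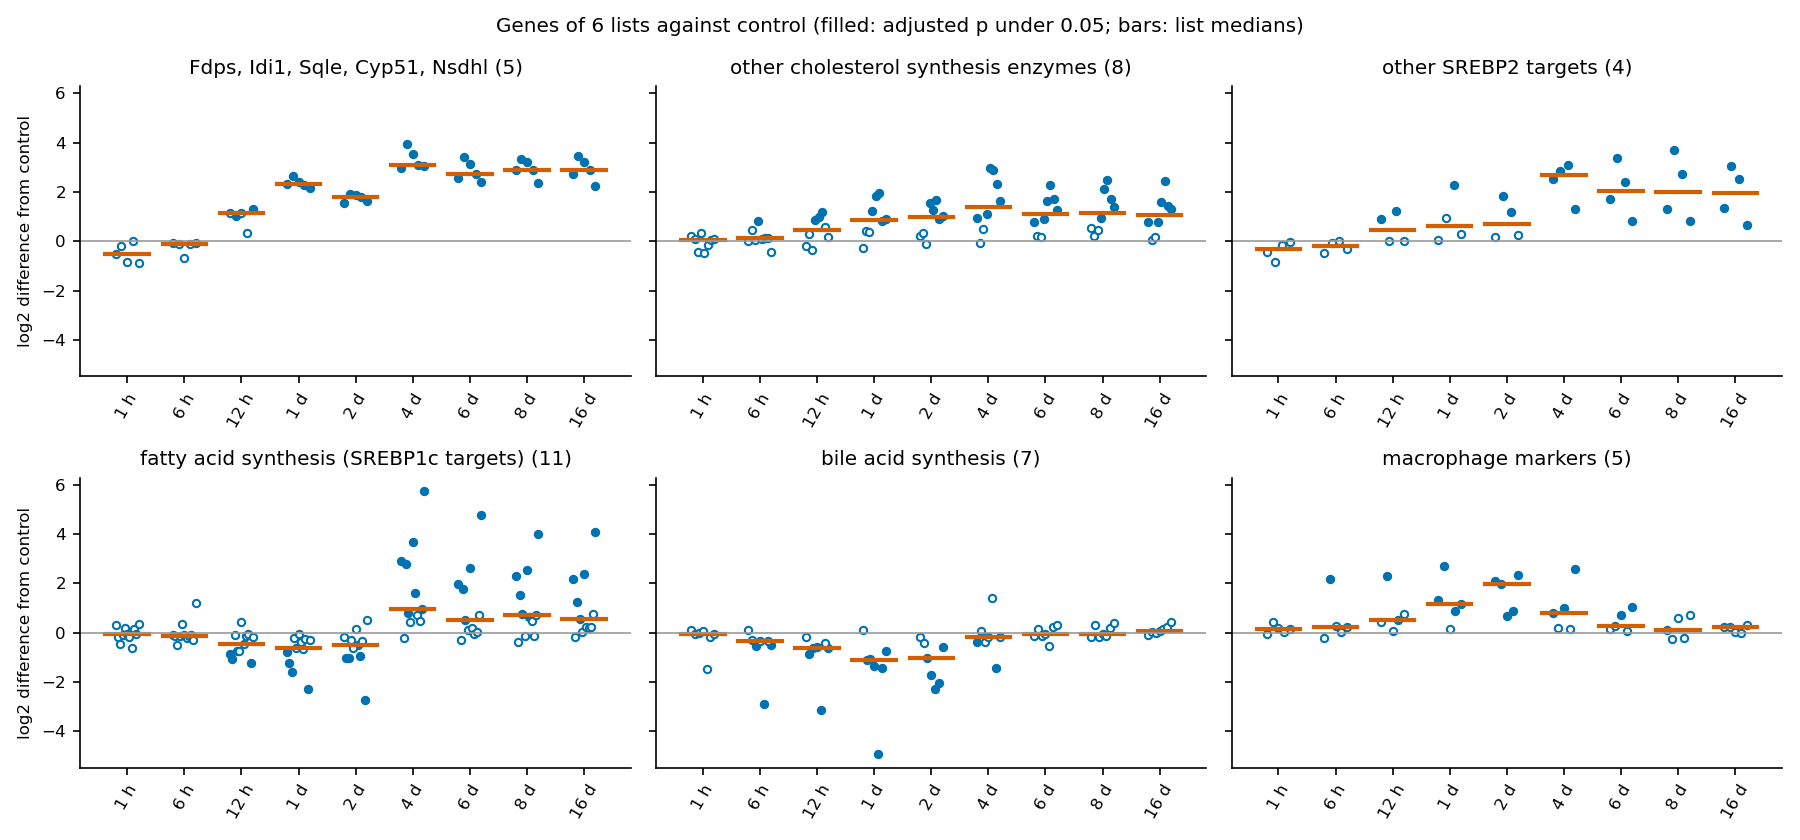
Log2 difference from control (vertical axis) of each gene of 6 lists at each time; filled points passed an adjusted p under 0.05, open points did not, and bars are the list medians. The fatty acid synthesis genes have medians below 0 up to 2 d and a median of 0.96 at 4 d, where the highest single gene is Thrsp at 5.76; the 5 cholesterol synthesis genes have medians of 2.31 at 1 d and 3.07 at 4 d.

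The genes of fatty acid synthesis, the targets of SREBP1c, were called lower at the early times where they were called at all. Of 11 with control values, 4 were called lower at 12 h, against 12.2% of all genes, 4 at 1 d, against 13.4%, and 5 at 2 d, against 12.7%. Scd1, the stearoyl-CoA desaturase, fell, with differences of -1.22 ± 0.27 at 12 h, -2.27 ± 0.27 at 1 d and -2.75 ± 0.27 at 2 d. At 4 d, 7 of 11 were called higher, against 9.99% of all genes, led by Thrsp (5.76 ± 0.47), Fasn, the fatty acid synthase (3.67 ± 0.29), and Acss2, acetyl-CoA synthetase (2.91 ± 0.26), and at 16 d 5 of 11, against 3.31%. The medians of the 11 were -0.64 at 1 d and 0.96 at 4 d, beside 2.31 and 3.07 for the 5 cholesterol synthesis genes, and this difference between the lists was not tested.

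Genes that carry cholesterol onward gave lower or mixed values. Of 7 genes of bile acid synthesis, the main route of cholesterol breakdown, 5 were called lower at 12 h (12.2% of all genes), 6 at 1 d (13.4%), 5 at 2 d (12.7%) and 2 at 4 d (6.54%). Cyp27a1, the sterol hydroxylase of the mitochondria, fell, with differences of -1.35 ± 0.18 at 1 d and -1.72 ± 0.18 at 2 d, and stood at 0.07 ± 0.18 at 16 d. Of the sterol transporters that respond to LXR, Abcg8 was lower at 1 d (-0.94 ± 0.14), Abcg1 was higher by 1.44 ± 0.16 at 2 d, and Abca1 was higher by 0.73 ± 0.12 at 4 d. Lcat, which esterifies cholesterol in plasma, was lower at 1 d (-0.64 ± 0.09) and at 16 d (-0.43 ± 0.09).

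Markers of feeding and fasting and of other cells also moved with time. Of 7 fed and fasted state genes, 3 were called higher than control at 1 h (0.335% of all genes), 4 at 6 h (3.78%), 2 at 1 d (16.2%), 4 at 4 d (9.99%) and 5 at 16 d (3.31%), of which the count at 1 d was nearest to the share over all genes. The list joins fed state and fasted state genes, so that its counts and mean levels give no direction of feeding. Igfbp1, which rises in fasting, was higher than control at every time, by between 3.85 ± 0.49 (8 d) and 5.89 ± 0.52 (6 h). Thrsp, of the same list and also listed under fatty acid synthesis, was higher at 4 d as given above. The mean level of the 7 was 7.87 to 8.38 on the control arrays and 8.66 to 10.59 on all others, 1 h and 6 h included. The part of the controls' feeding state in the differences was not tested. Of 5 macrophage markers, 4 were called higher at 1 d (16.2% of all genes), 5 at 2 d (19.9%), 3 at 4 d (9.99%) and 0 at 16 d (3.31%), with mean levels of 6.17 to 6.60 on control arrays, 7.52 to 8.46 at 2 d and 6.17 to 7.11 at 16 d. Of 9 DNA replication genes, 9 were called higher at 2 d (19.9% of all genes) and 1 at 16 d (3.31%). Of the macrophage markers, 0 had an unadjusted p under 0.05 at 16 d (limma). The part of other cells in the differences of the cholesterol synthesis genes was not tested.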

How the data were processed

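Liver RNA was measured on 49 Affymetrix mouse arrays. Per the submitters' processing notes, the authors used oligo 1.52.0 and RMA, and the deposited values are log2 expression per probe set; the sources used here name no genome build. They were used as deposited. The 25 arrays of 1 h, 12 h, day 1, day 2 and day 16 held 45101 probe sets and the other 24 arrays the first 8137 or 8138. Of the 8137 common to all, 7370 had 1 gene symbol in the platform annotation, 223 several and 544 none; of 45101, 34958, 932 and 9211. The single-symbol probe set with the highest mean over the arrays stood for its gene.

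Tests used limma (version 3.58.1, under R 4.3.3; eBayes at its defaults) with 1 mean per group and the spread shared over all groups. Genes whose p, adjusted by Benjamini and Hochberg over all genes, was under 0.05 were called. Fold values are 2 to the power of the log2 difference, which RMA can understate for dim probe sets. The number of arrays limits the precision. The procedure was tested on simulated data.

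The genes and the lists were chosen with earlier results of these data known. Named beside the 7 genes are, from each list at a described time, up to 3 called genes with the largest differences, and the 5 genes most alike in pattern; values of a named gene are also given at other times. Of the lists, genes without a single-symbol probe set were not analysed here. Alternatives were the mean of a gene's probe sets, leaving out probe sets marked for cross-hybridisation, leaving out dim genes, trend and robust eBayes, array weights, quantile normalisation, centring on the median or on ribosomal protein genes, fitting the compared groups alone, a replicate block, leaving out each array, and leaving out the 3 arrays of narrow range.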

Additional observations from a re-analysis of the deposited data

Results flagged for a closer look

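In 60 groups of levels, 1 per gene and group of 4 or 5 arrays, 2 arrays stood apart from the rest of their group by Dixon's criterion, which chance alone meets in about 1 of 20 groups. Both were low values of Cyp51, the lanosterol demethylase, in the probe set measured on all arrays. On 8 d replicate 5 the Cyp51 level was 8.13, and the nearest of the other 4 arrays was at 8.57; the gap was 0.725 of the range of the group. On 16 d replicate 4 it was 7.75, with the nearest array at 8.40 and a gap of 0.728 of the range. The second array is 1 of the 3 with a narrow range of values, and all 5 genes with control values were lowest there. Without those 3 arrays Cyp51 was higher than control by 2.61 at 16 d (limma adjusted p = 0.000232), beside 2.72 with them.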

How the results depend on the processing

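The differences of the 5 genes from control between 1 d and 16 d kept call and direction in 623 of 624 repeats. The counts of genes called changed at 12 h and in a few steps between times. At 12 h against control the count of 2 was 0 with array weights, 1 with ribosomal protein centring, 0 with the compared groups alone, 1 without the 3 arrays of narrow range and 0 to 3 leaving out 1 array. From 6 h to 12 h the count of 1 was 2 without dim genes, 2 with array weights, 3 with quantile normalisation, 3 with median centring, 2 with ribosomal protein centring, 0 with the compared groups alone, 3 without the 3 arrays and 0 to 4 leaving out 1 array. From 12 h to 1 d the count of 2 was 0 with the compared groups alone, from 4 d to 6 d the 0 called lower became 2 (Fdps and Sqle), and from 2 d to 4 d the count of 5 was 3 to 5 leaving out 1 array. On the complete arrays, the count of 2 at 12 h against 1 h was 1 with the mean of probe sets, 1 with array weights, 1 with the compared groups alone, 1 without the 3 arrays and 1 to 5 leaving out 1 array; the count of 3 from 2 d to 16 d was 5 with array weights, 6 with ribosomal protein centring and 5 with the compared groups alone. The causes were not tested.

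Ribosomal protein centring moved the median of all genes by -0.13 at 12 h, -0.28 at 1 d and -0.25 at 2 d against control. Among the other named genes, 3 values reversed: Srebf2 at 1 d against 1 h with the mean of probe sets (0.52), Msmo1 at 2 d against 1 h without marked probe sets (-0.19), which left a dimmer probe set, and Npc2 at 1 d against 1 h with ribosomal protein centring (-0.24). Deviations of same-numbered arrays had a median correlation of 0.06 on all arrays and 0.12 on the complete arrays, beside -0.01 and 0.000727 for other numbers, but fell to -0.53 and -0.57 in single pairs, so the numbers were not taken to pair the samples. A replicate block lowered the 12 h count on the complete arrays to 1 and changed no other count of these genes called.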

Other observations

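Markers of the other liver cell types were compared with control at 2 d and 16 d as well. Of 7 stellate and myofibroblast markers 6 were called higher at 2 d, against 19.9% of all genes; at 16 d 0 were called (limma) and 1 had an unadjusted p under 0.05. Their mean levels were 5.36 to 5.77 on control arrays, 7.49 to 8.04 at 2 d and 5.65 to 5.90 at 16 d. Of 4 endothelial markers 2 were called higher at 2 d, and of 5 neutrophil markers 1 was called higher at 2 d and 1 at 16 d, when 19.9% and 3.31% of all genes were; the neutrophil count at 2 d is near the share over all genes. Of 5 lymphocyte markers 4 were called lower at 2 d, against 12.7% of all genes. At 16 d 0 endothelial and 0 lymphocyte markers were called, 0 of 3 cholangiocyte markers were called at either time, and 0 of these had an unadjusted p under 0.05 (limma).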
